A study of Mus musculus with 12 samples.

Results

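Primary cilium transport genes were followed in RNA sequencing of FACS-sorted mouse dermal papilla cells, a cluster of mesenchymal cells enclosed by the lower hair follicle. They were taken by gene symbol alone, as the Ift and Bbs families, the Ttc genes of the same complexes, both dynein-2 genes, the kinesin-2 genes and 10 further named cilium genes. The 43 genes so chosen, all present in both tables, were set within 25887 genes in all. By role, 6 belonged to the IFT-A complex, 16 to IFT-B, 2 to dynein-2, 4 to kinesin-2, 9 to the BBSome and its assembly factors, 4 were membrane cargo factors (Arl13b, Arl6, Tulp3 and Inpp5e) and 2 were Evc and Evc2.

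The libraries formed 4 groups of 3. Mice with a gain-of-function form of Smo restricted to the dermal papilla (Smo*) and wild type (WT) mice were sampled at postnatal day 20 (P20) as females labelled telogen, when the follicle rests. Both genotypes were sampled again at postnatal day 28 (P28) as males labelled anagen, the growth stage. At P28 the Smo* libraries were labelled anagen I-III and the WT libraries anagen VI, so genotype and hair cycle stage cannot be told apart at that age. Age, sex and stage differed together between P20 and P28 in both genotypes and cannot be told apart either. The labels do not name the driver of the mutant allele, nor whether the 3 libraries of a group are different animals, and the spread behind each p-value is that among libraries.

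The primary cilium is a single antenna on the surface of most mesenchymal cells, built and kept up by trains of IFT proteins that move along its microtubules. Kinesin-2 carries the trains to the tip with the IFT-B complex, and dynein-2 carries them back with the IFT-A complex, while the BBSome moves membrane proteins out. Smo acts inside this compartment: it enters the cilium when Hedgehog binds its receptor Ptch1, and the Gli transcription factors are processed there.

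The libraries held 36323058 to 48926831 reads on genes. One stood apart: P28 Smo* replicate 3 had a read on 15453 genes, against 17337 to 17926 genes in the other 11, and a summed level of the dermal papilla marker list of 43697, against 168511 and 260804 in the other P28 Smo* libraries. Without it, limma called the same 4 members between genotypes at P28, the same 2 in the test of the difference between ages, 13 instead of 11 over time in WT, and Dync2h1 and Tulp3 in place of Dync2h1 and Ift80 over time in Smo*. In such bulk libraries fewer cells of a type and less RNA per cell cannot be told apart. All 15 dermal papilla markers were detected in each group. Smo itself, the altered gene, was at 6351, 7528 and 7342 normalized read counts in P20 Smo* libraries, against 5225, 5037 and 5038 in P20 WT libraries. At P28 it was at 7487, 8694 and 7551 in Smo* and 5725, 5418 and 6144 in WT libraries. The Smo* libraries were above the WT libraries at both ages, with log2 fold changes of 0.47 (adjusted p = 0.111) and 0.46 (adjusted p = 0.0502) that missed the threshold of 0.05. Counts per gene do not separate reads of the gain-of-function form from those of the unaltered gene. The Hedgehog target Gli1 was higher in Smo* at P20 (log2 fold change 1.63, adjusted p = 0.0449) and at P28 (1.52, adjusted p = 0.000237), the P20 call holding in 1 of 6 fits that leave out a library, without P20 WT replicate 3 (highest adjusted p of the others 0.144), and lost with edgeR (0.0549) and with a filter at a mean of 50 (0.0523).

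Every member had reads in every library except Kif17 in one, and levels spanned a wide range. Levels between genes were compared per kb of exon, as normalized read counts per kb. Ift20, an IFT-B protein that also works at the Golgi, stood highest, at 1555 ± 293 per kb in P28 Smo*, 1215 ± 268 in P28 WT, 1225 ± 142 in P20 Smo* and 1300.1 ± 151 in P20 WT (SD, n = 3 each). It ranked first of the 43 in every group. The cargo adaptor Tulp3, which brings receptors such as Gpr161 into the cilium, ranked second at P28, at 526 ± 119 in Smo* and 562 ± 26.5 in WT, but stood below Kifap3 and Evc in both P20 groups, at 375 ± 10.3 in P20 Smo* and 377 ± 38.5 in P20 WT. Kifap3, the cargo-binding subunit of the kinesin-2 motor, lay between 436 and 472 per kb in all 4 group means. The fold between the highest and lowest of the 4 group means had a median of 1.31 over the 43 members, and it was under 2 for 41 of them, the other 2 being Kif17 and Wdr35.

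**Figure D1:**
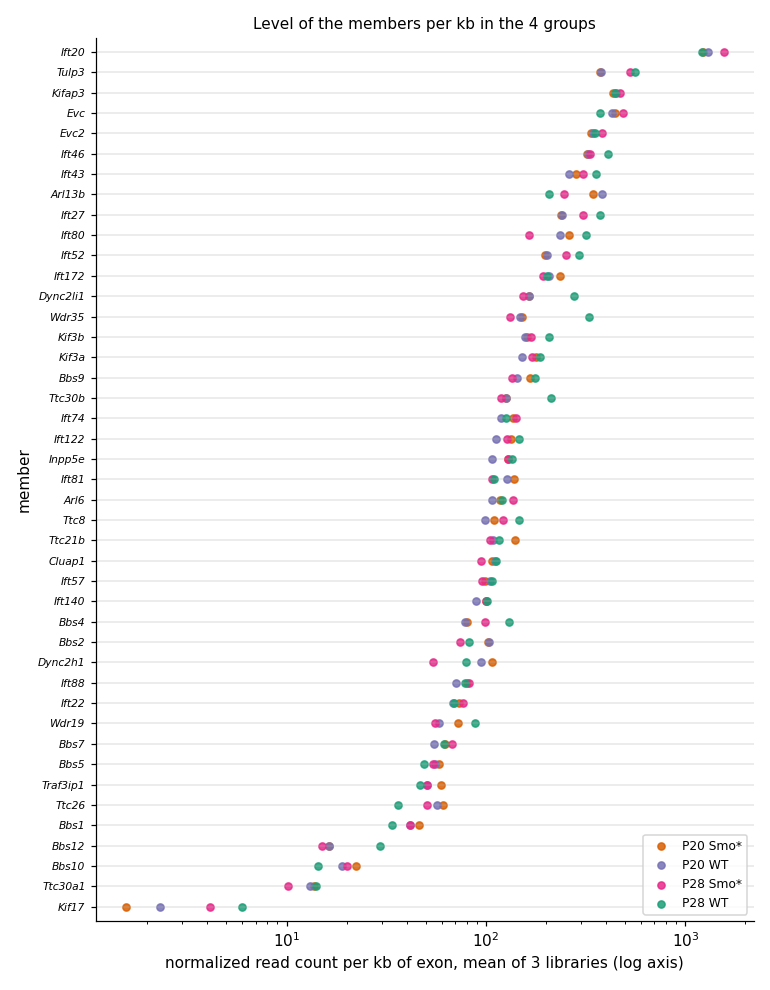
Normalized read count per kb of exon (log axis) for the 43 members, each point the mean of 3 libraries of one group. Ift20 stands highest at 1215 to 1555 per kb and Kif17 lowest at 1.57 to 5.97 per kb, and the green point of Wdr35 (P28 WT, 328 per kb) lies to the right of its other 3 group means (132 to 152 per kb).

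Kif17, a kinesin-2 motor made of 2 identical chains and best known in neurons and sensory cells, stood lowest. It had 6.20, 0 and 10.04 normalized read counts in P20 Smo* libraries, 10.2, 6.24 and 7.71 in P20 WT, 13.2, 18.02 and 11.8 in P28 Smo* and 20.5, 20.2 and 21.2 in P28 WT. In the library at 0, the limit that a count of 0 allows (3 reads) is a normalized read count of 2.61, for counting error only. Kif17 was under the filter on low values (a mean of at least 10) at P20 and was not tested there, so 42 of 43 members were tested at P20 and 43 in the other comparisons. The other members of low level per kb were Ttc30a1, Bbs10 and Bbs12, at 10.2 to 29.5 per kb in the group means. Genes of the motile axoneme, which primary cilia lack, summed to 158 to 406 normalized read counts over 14 genes, against 24061 to 28578 over the 43 members.

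Promoter windows are shown for Wdr35, whose 3 calls held in every alternative, for Arl13b and Ttc26, the members called lower over time in WT, and for the neighbours Evc and Evc2, whose proteins bind Smo. The windows are the 250 bases before the RefSeq start site, in GRCm38.p6, for Wdr35 (chr12:8973751-8974000, + strand), Arl13b (chr16:62847041-62847290, − strand), Ttc26 (chr6:38381274-38381523, + strand), Evc (chr5:37336882-37337131, − strand) and Evc2 (chr5:37338228-37338477, + strand). Evc and Evc2 are divergent neighbours whose start sites lie 1597 bases apart. Each is given 5′ to 3′ on the strand of its gene, and capitals mark a match to GTTGCC on either strand, the half-site bound by RFX factors, which drive cilium genes.
Wdr35: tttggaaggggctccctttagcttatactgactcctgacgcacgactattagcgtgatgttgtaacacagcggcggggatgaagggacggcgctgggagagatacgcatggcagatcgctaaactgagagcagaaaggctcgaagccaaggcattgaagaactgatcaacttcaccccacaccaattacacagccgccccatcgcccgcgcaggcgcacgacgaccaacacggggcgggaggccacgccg
Arl13b: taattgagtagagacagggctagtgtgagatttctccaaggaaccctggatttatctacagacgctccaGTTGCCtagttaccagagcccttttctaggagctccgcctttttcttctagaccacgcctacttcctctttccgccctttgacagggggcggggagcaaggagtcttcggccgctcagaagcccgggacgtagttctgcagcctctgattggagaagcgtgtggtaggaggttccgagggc
Ttc26: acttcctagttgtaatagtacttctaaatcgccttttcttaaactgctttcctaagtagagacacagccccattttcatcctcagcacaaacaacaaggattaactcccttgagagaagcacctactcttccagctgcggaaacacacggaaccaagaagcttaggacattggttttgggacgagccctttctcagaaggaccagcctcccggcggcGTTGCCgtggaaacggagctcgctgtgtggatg
Evc: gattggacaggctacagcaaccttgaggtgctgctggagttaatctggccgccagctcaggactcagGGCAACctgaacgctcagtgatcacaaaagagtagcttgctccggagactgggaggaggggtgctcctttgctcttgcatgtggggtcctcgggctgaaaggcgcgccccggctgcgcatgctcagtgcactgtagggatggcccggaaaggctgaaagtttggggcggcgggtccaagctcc
Evc2: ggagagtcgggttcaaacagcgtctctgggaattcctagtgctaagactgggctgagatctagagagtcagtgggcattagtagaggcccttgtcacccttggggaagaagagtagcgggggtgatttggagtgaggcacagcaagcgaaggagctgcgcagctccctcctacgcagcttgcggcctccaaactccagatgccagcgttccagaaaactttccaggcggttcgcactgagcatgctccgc
The match starts 181 bases before the start site in Arl13b, 33 in Ttc26 and 183 in Evc, and none lies in the windows of Wdr35 and Evc2. In the GENCODE annotation the gene begins inside the window for Wdr35 (8973892), Ttc26 (38381469) and Evc (37336894). The Ttc26 match thus lies within the GENCODE gene, and part of the Wdr35 window does too. Of the 43 members 38 had a RefSeq window, in 40 windows in all, and 10 of these (25%) held GTTGCC on either strand, against 10.43% of all 32851 mouse windows of the same length. The longer RFX motif known as the X-box was found in the windows of Ift57 and Kif17, 5% of member windows, against 1.291% of all windows. The Gli site GACCACCCA, searched on both strands, was in 0 of the 40 member windows and in 0.2253% of all windows. These are matches of letters in a window, and no binding was measured.

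At P20, in telogen, no cilium transport gene passed the test between Smo* and WT. At P20 0 of the 42 members tested passed limma's test at an adjusted p of 0.05, where 0.696% of all 14645 genes did (0.485% higher), and edgeR, DESeq2 and the authors' deposited table also called 0. At an unadjusted p under 0.05 limma had 1 member, Ttc21b, against 11.4% of all genes, edgeR 1 and DESeq2 0. No member reached a 2-fold change, which 4.81% of all genes did. The members' median log2 fold change was 0.09, with 29 of 42 above 0, against 50.5% of all genes. The 95% interval of the fold change lay within 2-fold in either direction for 41 of the 42, the other being Bbs5. Of the cell markers at P20, 2 of 15 dermal papilla markers were called higher in Smo* and 1 of 9 dermal fibroblast markers lower. The papilla markers summed to 60500 to 77983 in P20 Smo* and 48421 to 64074 in P20 WT. The fibroblast markers summed to 115755 to 127512 in P20 Smo* and 161680 to 177601 in P20 WT, without overlap. The other marker lists had no call, and the part of the markers was not tested.

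Ttc21b, a peripheral subunit of IFT-A, had 653, 565 and 657 normalized read counts in P20 Smo* libraries, against 431, 449.6 and 579 in P20 WT libraries. The groups overlapped, and the log2 fold change of 0.37 (SE 0.16) had an adjusted p of 0.419. Libraries did not overlap for 3 members, all higher in Smo*: Ift140 of the IFT-A core, Ift88 of IFT-B, and Inpp5e, the phosphatase that sets the lipid identity of the ciliary membrane. That is 7.14% of the members tested, where 8.04% of all genes were higher without overlap, so the share is at the background. None was lower without overlap, against 8.34% of all genes. Inpp5e had 489, 497 and 613 in P20 Smo*, against 483, 367 and 481 in P20 WT, with an adjusted p of 0.609. It shares 20.3% of its exon bases with Pmpca on the other strand, and the strand setting of the read counting was not stated.

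Among the other roles at P20, the smallest p-values belonged to Traf3ip1 of IFT-B (log2 fold change 0.24, adjusted p = 0.713), Dync2h1 (0.19, adjusted p = 0.731), the motor subunit Kif3a (0.24, adjusted p = 0.628), the BBSome subunit Bbs9 (0.21, adjusted p = 0.7) and Evc (0.06, adjusted p = 0.873). Kif3a had 618, 518 and 591 in P20 Smo*, against 423, 467 and 578 in P20 WT. Bbs9 had 559, 535 and 690.0 in P20 Smo*, against 554, 432 and 562 in P20 WT. Traf3ip1 had 197, 203 and 256 in P20 Smo*, against 154, 201 and 202 in P20 WT. In all 3 the groups overlapped.

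At P28, with Smo* in anagen I-III and WT in anagen VI, 4 of the 43 members were lower in Smo* and none was higher. They were Wdr35 of IFT-A, Ift80 and Ttc30b of IFT-B, and the dynein-2 heavy chain Dync2h1. These 4 are 9.30% of the members, where 8.9% of all 14757 genes were called in either direction, 4.85% lower and 4.05% higher. The count in both directions is thus near the background, and the members called were all on one side. The median log2 fold change of the members was −0.14, with 15 of 43 above 0, against 49.1% of all genes. At an unadjusted p under 0.05 there were 9 members (20.9%), against 26.4% of all genes. Values did not overlap for 12 members lower in Smo* (27.9%, against 17.8% of all genes) and for 2 higher, Bbs10 and Evc (4.65%, against 15.6%).

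**Figure D2:**
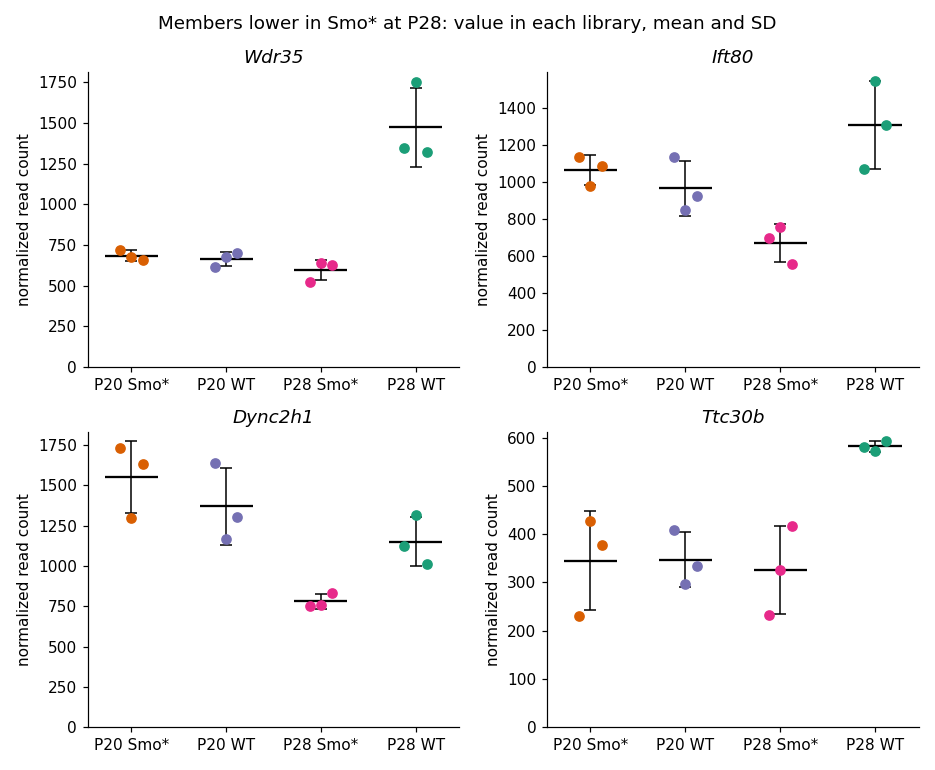
Normalized read count of the 4 members called at P28 in each library (points), with the mean (bar) and SD (whiskers) of each group of 3. The 3 P28 Smo* libraries of Wdr35 sit between 525 and 638, next to both P20 groups, and the 3 P28 WT libraries sit between 1324 and 1753.

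Wdr35, an IFT-A subunit needed for retrograde transport and for the entry of membrane proteins into the cilium, differed most. The gene lies at chr12:8973892-9028847 (GRCm38). It had 525, 638 and 627 normalized read counts in P28 Smo* libraries, against 1346, 1753 and 1324 in P28 WT libraries. The groups were far apart, with 638 in the highest Smo* library and 1324 in the lowest WT library. The mean was 597 ± 62.6 in Smo* and 1474 ± 242 in WT (SD, n = 3 each), a ratio of 0.405, and the log2 fold change was −1.30 (SE 0.16, adjusted p = 0.00253). Wdr35 was called in all 16 alternative fits, at log2 fold changes of −1.37 to −1.17, and without P28 Smo* replicate 3 it stood at −1.34.

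The 5 remaining IFT-A members lay below 0 as well at P28, but none passed limma's test. Wdr19, a core subunit, had 393, 383 and 271 in P28 Smo*, against 452, 677 and 537 in P28 WT, with no overlap (log2 fold change −0.67, SE 0.22, adjusted p = 0.0983), and it was called by DESeq2 and in the authors' deposited table (adjusted p = 0.0311). Ift43, the IFT-A member with the highest level per kb, had 256, 293 and 190.4 in P28 Smo*, against 255, 292 and 319.5 in P28 WT, and the groups overlapped (adjusted p = 0.494). Summed over the 6 IFT-A members, the level was 2851, 3145 and 2922 in P28 Smo* and 3956, 4722 and 4037 in P28 WT. Without Wdr35 the sums were 2326, 2507 and 2295 in P28 Smo* and 2609.8, 2969 and 2713 in P28 WT, still without overlap. Of single genes 17.8% were lower without overlap, and no such share was taken for sums. The sums are not scaled to gene length, and Wdr19 alone entered them with means of 349 in P28 Smo* and 555 in P28 WT. Ift140 and Ift122, the other core subunits, had log2 fold changes of −0.02 and −0.20.

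In IFT-B, 2 of 16 members were called lower in Smo* than in WT at P28 and none higher. Of all genes 4.85% were called lower and 4.05% higher, and 16 members are too few to set apart from those shares. Ift80 (chr3:68892499-69004570), a subunit of the peripheral IFT-B subcomplex, had 698, 755 and 554 normalized read counts in P28 Smo* libraries, against 1071, 1543 and 1305 in P28 WT libraries. The groups did not overlap, and the log2 fold change was −0.96 (SE 0.18, adjusted p = 0.0163). The call was lost without P28 WT replicate 2 or 3 (adjusted p = 0.0694 and 0.071), and it held without P28 Smo* replicate 3 (log2 fold change −0.83, adjusted p = 0.0186).

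Ttc30b (chr2:75935849-75938585), a subunit of the IFT-B core, had 234, 325 and 416 in P28 Smo*, against 580.3, 571 and 593 in P28 WT. The 3 WT libraries were close together and all above the Smo* libraries, which spread widely (log2 fold change −0.88, SE 0.22, adjusted p = 0.043). The call held in only 1 of the 6 fits that leave out a library, the one without P28 Smo* replicate 3 (adjusted p = 0.00838). It was lost without P28 Smo* replicate 1 or 2 (0.0745 and 0.0776) and without P28 WT replicate 1, 2 or 3 (0.109, 0.131 and 0.146). Ttc30b, Ttc30a1 and Ttc30a2 are close copies, and the split of reads among them is uncertain.

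The other 14 IFT-B genes did not pass the test at P28. Ift20 had 1460.1, 1737 and 2125 in P28 Smo*, against 1483, 1043 and 1632 in P28 WT (log2 fold change 0.36, adjusted p = 0.293). Ift46, Ift27 and Ift52, subunits of the IFT-B core, were lower in every P28 Smo* library than in any P28 WT library, with log2 fold changes of −0.29, −0.28 and −0.22 and adjusted p-values of 0.182, 0.271 and 0.361. Across the 16, log2 fold changes had a median of −0.11 and ran from −0.96 to 0.51, and 6 were above 0.

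Of the 2 dynein-2 members, 1 was called lower in Smo* than in WT at P28, too few to set beside the 4.85% of all genes called lower. Dync2h1 (chr9:6928503-7184446), the heavy chain that powers return transport, had 753, 758 and 834 in P28 Smo* libraries, against 1127, 1316 and 1013 in P28 WT libraries. The groups did not overlap (log2 fold change −0.55, SE 0.14, adjusted p = 0.0444). This call also held in only 1 of 6 left-out fits, again the one without P28 Smo* replicate 3 (adjusted p = 0.0364). It was lost without P28 Smo* replicate 1 or 2 (0.104 and 0.0997), without P28 WT replicate 1, 2 or 3 (0.109, 0.152 and 0.0805) and under quantile normalization (0.0511).

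Dync2li1, the light intermediate chain of the same motor, had 245, 246 and 133 in P28 Smo*, against 317, 388 and 423 in P28 WT. Smo* replicate 3 was the lowest, and the log2 fold change of −0.90 (SE 0.27, adjusted p = 0.0832) was −0.61 without it (adjusted p = 0.0808). It was called lower by DESeq2 (adjusted p = 0.029), in the authors' deposited table (0.00488) and by a fit of all 12 libraries (0.0242). The 2 genes summed to 997, 1003 and 967 in P28 Smo* and to 1444, 1704 and 1436 in P28 WT.

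None of the 4 kinesin-2 members passed the test at P28, where 8.9% of all genes did, and 4 are too few to set apart from that share. Kif3b had 987, 1054 and 815 in P28 Smo*, against 1313, 1044 and 1127 in P28 WT (log2 fold change −0.29, adjusted p = 0.258). Kifap3 had 1827, 1841 and 2017 in P28 Smo*, against 1749, 1860.0 and 1716 in P28 WT, with a 95% interval of the log2 fold change from −0.15 to 0.34. Kif3a was at −0.14 and Kif17 at −0.52, with adjusted p-values of 0.593 and 0.558.

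The BBSome and its assembly factors had no call at P28 among 9 members, where 8.9% of all genes were called. So few members cannot be set apart from that share. Bbs12, a chaperonin-like protein that helps assemble the BBSome, had 23.1, 37.0 and 50.3 in P28 Smo*, against 78.5, 59.4 and 77.4 in P28 WT. These low counts did not overlap, and the log2 fold change of −1.0 (SE 0.39) had an adjusted p of 0.15 and a 95% interval from −1.89 to −0.11. Bbs9 had 623, 457 and 373 in P28 Smo*, against 589, 662 and 647 in P28 WT (−0.41, adjusted p = 0.227). Arl13b, the small GTPase of the ciliary shaft, had 1105, 825 and 678 in P28 Smo*, against 706, 905 and 589 in P28 WT (0.24, adjusted p = 0.53). Inpp5e had 506, 534 and 567 in P28 Smo*, against 569, 536 and 573 in P28 WT, and was at −0.06.

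Evc, which with Evc2 forms the complex at the cilium base that binds active Smo, was the member nearest to a call upward. It had 2668, 2631 and 2633 in P28 Smo* libraries, against 2232, 1950.2 and 1925 in P28 WT libraries. All Smo* libraries were above all WT libraries, but the log2 fold change of 0.38 (SE 0.11) had an adjusted p of 0.0691, while DESeq2 (0.0266), the 12-library fit (0.015) and the authors' deposited table (0.00169) called it. Evc2 had 1653, 1369 and 1648 in P28 Smo*, against 1526, 1526 and 1276 in P28 WT, and overlapped (0.11, adjusted p = 0.638).

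**Figure D3:**
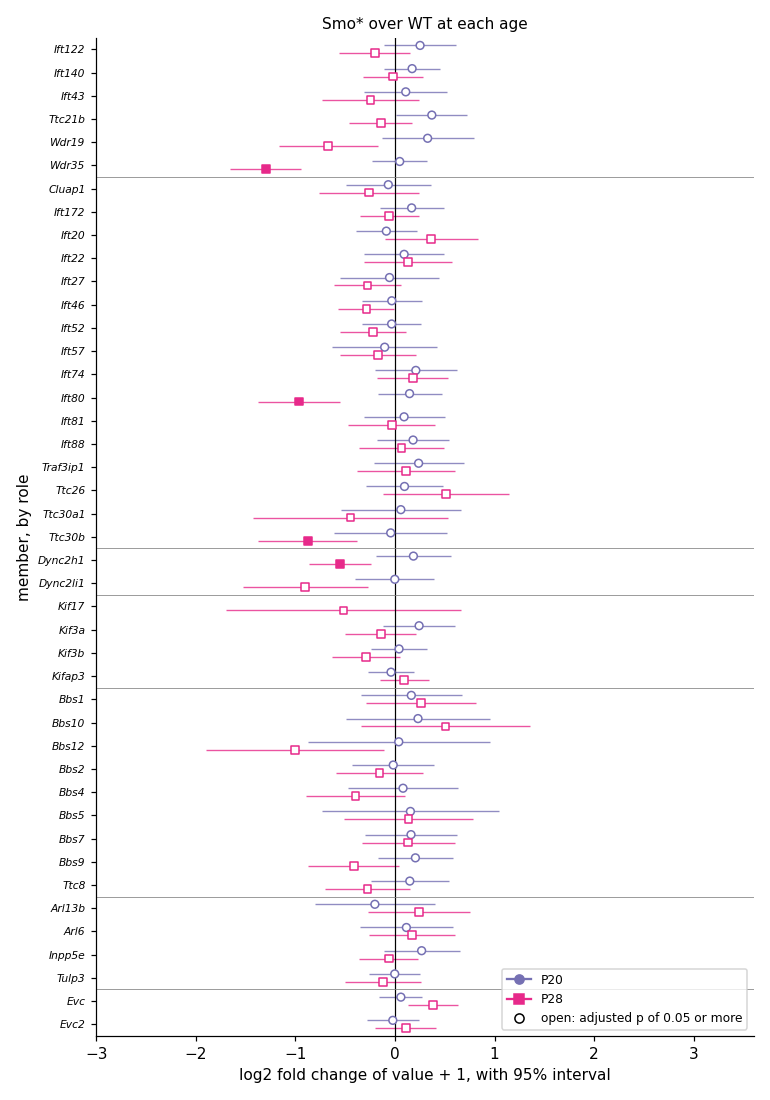
Log2 fold change of Smo* over WT with its 95% interval for each member, by role, at P20 (circles) and at P28 (squares), where filled marks have an adjusted p under 0.05. No circle is filled, and the filled squares are Wdr35 at −1.30, Ift80 at −0.96, Ttc30b at −0.88 and Dync2h1 at −0.55.

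The cell markers also differed between the P28 groups. The 15 dermal papilla markers summed to 43697 to 260804 in P28 Smo* and 312578 to 401951 in P28 WT, with 1 of 15 called higher and 4 lower. The 7 endothelial markers summed to 3232 to 5446 in P28 Smo* and 1596 to 3181 in P28 WT, with 2 of 7 higher, and the 7 basal keratinocyte markers to 133 to 207 in P28 Smo* and 235 to 752 in P28 WT, with none called. The 14 cycling-cell markers summed to 3306 to 9259 in P28 Smo* and 1510 to 3927 in P28 WT, overlapping, with 1 of 14 higher. The 6 hair matrix and shaft markers summed to 228 to 592 in P28 Smo* and 595 to 971 in P28 WT, without overlap, with 1 of the 3 tested lower. The 7 dermal sheath and smooth muscle markers summed to 13907 to 18619 in P28 Smo* and 15387 to 18881 in P28 WT, with 2 higher and 1 lower. The 5 adipocyte markers summed to 362, 797 and 5117 in P28 Smo*, the last in replicate 3, and to 416 to 475 in P28 WT, with none of the 4 tested called. Of the 5 Schwann cell markers, at 494 to 749 in P28 Smo* and 532 to 648 in P28 WT, 1 of the 4 tested was lower. The 9 dermal fibroblast markers (131003 to 168759 in P28 Smo*, 95104 to 172345 in P28 WT), the 7 immune markers (1049 to 1381 in P28 Smo*, 985 to 1348 in P28 WT) and the 5 melanocyte markers (171 to 224 in P28 Smo*, 104 to 239 in P28 WT) overlapped with none called. Krt27 of the hair shaft and Cd52 of immune cells were at 0 in all P28 Smo* libraries, and Cidec and Lep of adipocytes in all P28 WT libraries. The part of these markers in the members' differences was not tested.

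In WT mice, P28 over P20, 11 of the 43 members were called, 9 higher and 2 lower. This is 25.6% of the members, where 25.4% of all 14790 genes were called, so the number is at the background, and by direction 20.9% of members rose against 13.5% of all genes and 4.65% fell against 11.9%. The median log2 fold change was 0.15, with 30 of 43 above 0, against 49.5% of all genes. Under quantile normalization the split was 4 higher and 2 lower, with 26 of 43 above 0 and a median of 0.032, and 1871 of all genes were higher and 1946 lower. Values did not overlap for 17 members higher at P28 (39.5%, against 23.6% of all genes) and for 3 lower (6.98%, against 21.6%). These values share the P28 WT libraries with the genotype comparison at P28. The dermal papilla markers moved too: they summed to 312578 to 401951 in P28 WT and to 48421 to 64074 in P20 WT, with 9 of 15 called higher and 1 lower. Dermal sheath and smooth muscle markers summed to 15387 to 18881 in P28 WT and 6092 to 16668 in P20 WT, with 4 of 7 higher, and dermal fibroblast markers to 95104 to 172345 in P28 WT and 161680 to 177601 in P20 WT, with 1 of 9 higher and 3 lower. Hair matrix and shaft markers summed to 595 to 971 in P28 WT and 272 to 305 in P20 WT, with 1 of the 2 tested higher, and cycling-cell markers to 1510 to 3927 in P28 WT and 3079 to 4344 in P20 WT, with 2 of 14 lower. Of the basal keratinocyte markers 1 of 7 was higher and of the Schwann cell markers 1 of the 4 tested, and the endothelial, immune, melanocyte and adipocyte lists had no call. Their part was not tested. In 23 of the 43 members P28 WT had the highest of the 4 group means. This count was not made over all genes, so it cannot be set against a background.

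Wdr35 rose most among the members called: 1346, 1753 and 1324 in P28 WT, against 614, 675 and 701 in P20 WT (log2 fold change 1.14, SE 0.13, adjusted p = 0.000118). Every P28 WT library was above every P20 WT library, and the call held in all 20 alternatives. Tulp3 had 2305, 2507 and 2501 in P28 WT, against 1465, 1640.1 and 1799 in P20 WT, without overlap (0.58, SE 0.14, adjusted p = 0.0115), and was also called in all 20. Ift52 had 631, 603 and 747 in P28 WT, against 494, 429.8 and 447 in P20 WT (0.53, SE 0.12, adjusted p = 0.00895), a call lost only without P28 WT replicate 3 (adjusted p = 0.0509).

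Other members higher in P28 WT came from several complexes. Ift27, a small GTPase within IFT-B, had 421, 384 and 425 in P28 WT, against 294, 252 and 251 in P20 WT (0.63, adjusted p = 0.0261). Dync2li1 had 317, 388 and 423 in P28 WT, against 249, 193 and 230.3 in P20 WT (0.74, adjusted p = 0.0342). Ttc30b had 580.3, 571 and 593 in P28 WT, against 409, 298 and 333 in P20 WT (0.76, adjusted p = 0.0407). In these 3 the P28 libraries were all above the P20 libraries. The BBSome subunits Bbs4 and Ttc8 rose together with them. Bbs4 had 269, 337 and 380.3 in P28 WT, against 174, 148 and 269 in P20 WT, so that the lowest P28 and the highest P20 library met (0.77, adjusted p = 0.0304), and Ttc8 had 328, 300.5 and 387 in P28 WT, against 203, 249.8 and 228 in P20 WT (0.57, adjusted p = 0.0281). Bbs4 shares 3.21% of its exon bases with Adpgk on the other strand. Kif3b had 1313, 1044 and 1127 in P28 WT, against 794, 930.3 and 932 in P20 WT (0.39, adjusted p = 0.0487).

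Arl13b and Ttc26 went the other way. Arl13b had 706, 905 and 589 in P28 WT, against 1077, 1439 and 1516 in P20 WT, without overlap (log2 fold change −0.88, SE 0.27, adjusted p = 0.0304). Ttc26, an IFT-B subunit, had 169.8, 102 and 181 in P28 WT, against 270.2, 231 and 218 in P20 WT, also without overlap (−0.70, SE 0.23, adjusted p = 0.0412).

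Apart from Wdr35 and Tulp3, each of these calls was lost in some alternative. With no filter 8 of the 11 were called, 7 higher and 1 lower: Kif3b (adjusted p = 0.0587), Ttc26 (0.06) and Ttc30b (0.0521) were lost, and Ttc26 also with edgeR (0.0516). Quantile normalization lost Bbs4 (0.0543), Dync2li1 (0.0572), Ift27 (0.0555), Ttc30b (0.0634) and Ttc8 (0.074). DESeq2 called Wdr19 higher beside the 11. Single libraries mattered as well. Bbs4 was lost without P20 WT replicate 1 or 2 (adjusted p = 0.088 and 0.124) or P28 WT replicate 2 or 3 (0.08 and 0.12). Dync2li1 was lost without P20 WT replicate 2 or 3 (0.119 and 0.0738) or P28 WT replicate 2 or 3 (0.0891 and 0.124). Ift27 was lost without P20 WT replicate 2 or 3 (0.0805 and 0.081) or P28 WT replicate 1 or 3 (0.0688 and 0.0847). Arl13b was lost without P20 WT replicate 2 or 3 (0.0919 and 0.101) or P28 WT replicate 1 or 3 (0.0728 and 0.121). Ttc8 was lost without P20 WT replicate 1 or 3 (0.0927 and 0.0681) or P28 WT replicate 1 or 3 (0.0583 and 0.121). Ttc30b was lost without P20 WT replicate 2 or 3 (0.133 and 0.102) or any P28 WT library (0.0865, 0.0851 and 0.107). Kif3b was called in 3 of 12 such fits, without P28 Smo* replicate 2 or 3 or P28 WT replicate 2, and Ttc26 in 5 of 12, without P20 Smo* replicate 3, P28 Smo* replicate 1 or 3 or P28 WT replicate 1 or 3, and their adjusted p reached 0.169 and 0.151.

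**Figure D4:**
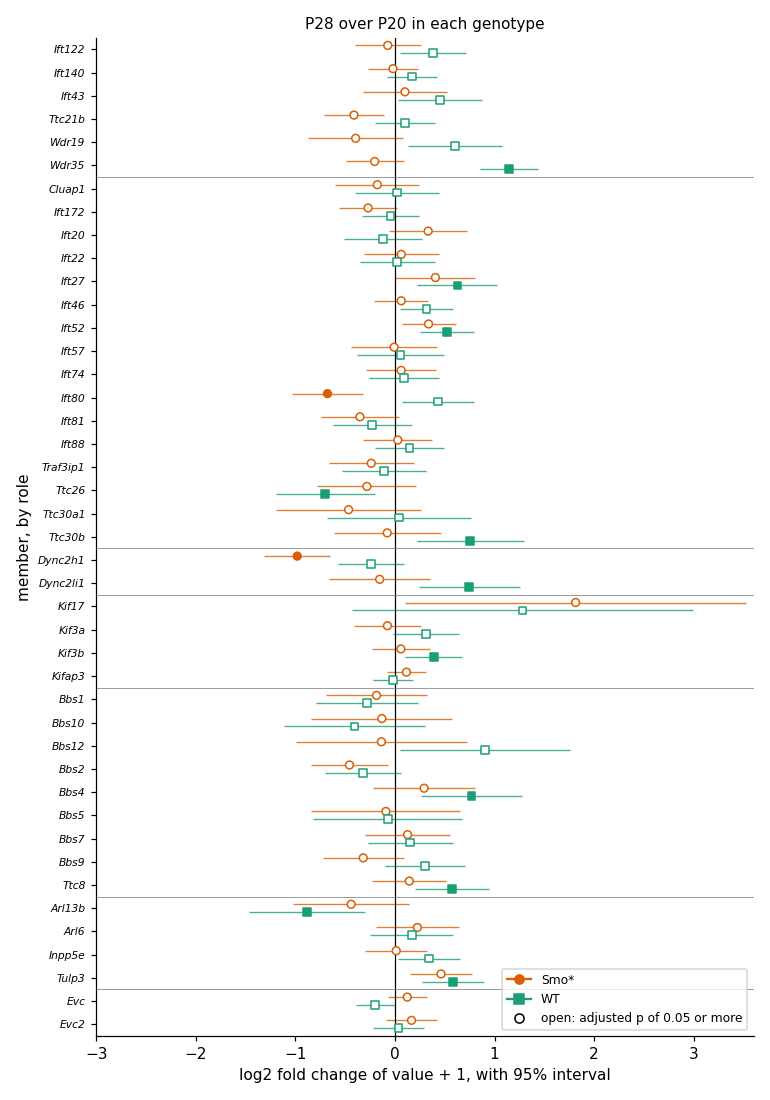
Log2 fold change of P28 over P20 with its 95% interval for each member, by role, in Smo* (circles) and WT (squares), where filled marks have an adjusted p under 0.05. Filled squares lie right of 0 for 9 members, led by Wdr35 at 1.14, and left of 0 for Arl13b and Ttc26, and the 2 filled circles are Dync2h1 at −0.98 and Ift80 at −0.68.

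In Smo* mice, P28 over P20, 2 of the 43 members were called, both lower, which is 4.65% of the members, where 3.46% of all 14790 genes were called, 1.47% lower and 1.98% higher. Under quantile normalization 314 genes were higher and 357 lower, with the same 2 members called. Of the members 19 were above 0, against 49.9% of all genes, and 1, Kif17, reached a 2-fold change, against 10.1% of all genes. This comparison and the one in WT come from 1 fit of the 12 libraries. Dync2h1 had 753, 758 and 834 in P28 Smo*, against 1729, 1299.7 and 1631 in P20 Smo* (log2 fold change −0.98, SE 0.15, adjusted p = 0.0116). The groups were far apart, and the call was lost only without P28 Smo* replicate 1 (adjusted p = 0.0521). Ift80 had 698, 755 and 554 in P28 Smo*, against 1132, 976 and 1082 in P20 Smo* (−0.68, SE 0.17, adjusted p = 0.0459), also without overlap. Its call held in 2 of 12 left-out fits, without P20 WT replicate 1 or P28 WT replicate 1, and its adjusted p otherwise reached 0.129. Without P28 Smo* replicate 3, Dync2h1 stayed called (−1.03, adjusted p = 0.00468) and Ift80 did not (−0.55, adjusted p = 0.0708). Wdr35, by contrast with its rise in WT, was at −0.20 in Smo* (adjusted p = 0.392, 95% interval −0.50 to 0.09). Tulp3 was at 0.46 (adjusted p = 0.0902), and it was called higher by DESeq2, which made 3 calls, and without P28 Smo* replicate 3. The endothelial markers summed to 3232 to 5446 in P28 Smo* and 2539 to 2710 in P20 Smo*, without overlap, with 1 of 7 higher, and the dermal sheath and smooth muscle markers to 13907 to 18619 in P28 Smo* and 6735 to 11293 in P20 Smo*, also without overlap, with 1 of 7 higher. The dermal papilla markers summed to 43697 to 260804 in P28 Smo* and 60500 to 77983 in P20 Smo*, with 1 of 15 higher and 1 lower. The other marker lists had no call, and the part of the markers was not tested.

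The difference between the Smo* effect at P28 and at P20, which uses all 12 libraries of the comparisons above, was tested directly for each gene. It passed the threshold for 2 of the 43 members, 4.65%, where 4.72% of all genes passed, with 2.83% on the lower side and 1.89% on the higher, so their number is not above the background. Wdr35 had an Smo* effect of 0.05 at P20 and −1.30 at P28, a difference of −1.34 (SE 0.19, adjusted p = 0.00276), called in all 20 alternatives. Ift80 had effects of 0.15 and −0.96, a difference of −1.11 (SE 0.23, adjusted p = 0.0216). The Ift80 call was lost without P20 WT replicate 2 or 3 (adjusted p = 0.0583 and 0.0508) or P28 WT replicate 2 or 3 (0.0583 and 0.0622). The next members were Dync2h1 at −0.74 (adjusted p = 0.0731) and Wdr19 at −0.997 (adjusted p = 0.0857). DESeq2 called both (0.0301 for Dync2h1), and Dync2h1 was also called without P20 WT replicate 1 (0.0446). All 6 IFT-A members and both dynein-2 members were below 0, and 11 of the 43 members were above 0, against 48.4% of all genes. Under quantile normalization 16 of the 43 were above 0, against 50.3% of all genes, and leaving out a library gave 9 to 16. Among the cell markers, 3 of 15 dermal papilla markers, 1 of 7 dermal sheath and smooth muscle markers and 1 of the 4 Schwann cell markers tested passed on the lower side, and 1 of 7 endothelial markers on the higher. Their part was not tested.

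**Figure D5:**
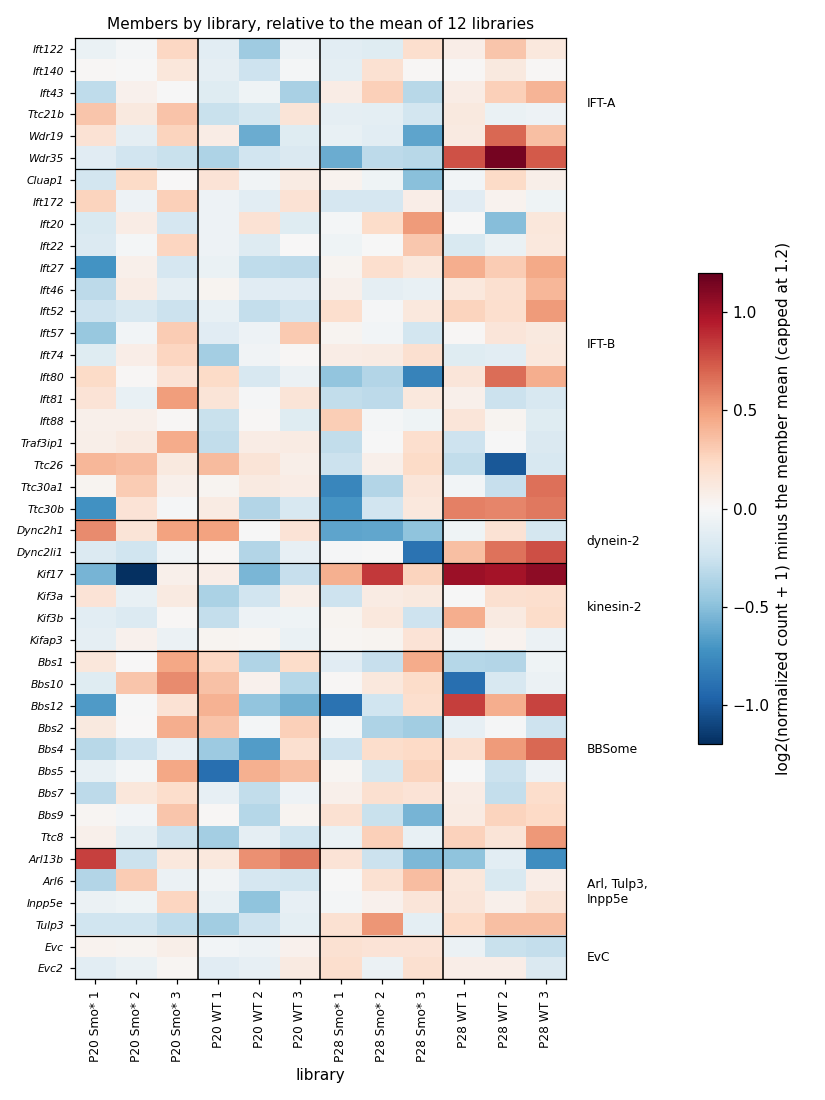
Log2(normalized read count + 1) of each member in each of the 12 libraries, minus that member's mean over the libraries (colour, capped at 1.2), in rows by role. Wdr35 is dark red in the 3 P28 WT libraries alone, where its counts were 1324 to 1753, and Dync2h1 is blue in the 3 P28 Smo* libraries, where its counts were 753 to 834.

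Other gene groups of the cilium were read against the same background. Of all genes 0.696% were called between genotypes at P20 and 8.9% at P28, and 25.4% over time in WT and 3.46% in Smo*. The lists are short, and their counts were not tested against these shares. Of 14 transport genes outside the symbol rule, 12 were tested at P20 with no call and 13 at P28 with 1, Tub, the neuronal relative of Tulp3, which had 102, 122 and 116 normalized read counts in P28 Smo* and 52.1, 30.9 and 40.5 in P28 WT (log2 fold change 1.47, adjusted p = 0.0258). Its call was lost without P28 Smo* replicate 1 or 2 (0.0639 and 0.0721) or P28 WT replicate 2 or 3 (0.0879 and 0.0915) and with no filter (0.0513). In WT, P28 over P20, the BBSome subunit Bbip1 was higher (0.61, adjusted p = 0.021) and the dynein light chain Dynll1 lower (−0.66, adjusted p = 0.0481) among the 12 tested. The Bbip1 call was lost without P20 WT replicate 3 or P28 WT replicate 3 (0.0806 and 0.0857) or under quantile normalization (0.0588), and that of Dynll1 held in 3 of 12 left-out fits, without P20 Smo* replicate 3, P20 WT replicate 1 or P28 Smo* replicate 3, its adjusted p otherwise reaching 0.188. Dynll1 was also lost with no filter (0.0599) and under quantile normalization (0.0736).

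The 23 transition zone genes, which form the gate at the cilium base, had no call between genotypes at either age, with medians of 0.06 at P20 and −0.03 at P28. In WT, P28 over P20, 1 of the 23 was higher and 4 were lower. Of all genes 25.4% were called there, 13.5% higher and 11.9% lower. Tctn1 was higher (0.38), and Tmem107 (−0.71), Tctn3 (−0.70), Rpgrip1l (−0.55) and B9d2 (−0.53), the last named after its values were seen, were lower. Tmem107 was lost without P20 WT replicate 2 or P28 WT replicate 2 (0.0912 and 0.0794), and Tctn3 without P20 WT replicate 2 or 3 (0.0983 and 0.125) or P28 WT replicate 2 or 3 (0.0557 and 0.141). Rpgrip1l was lost without P20 Smo* replicate 2, P20 WT replicate 1 or 2 or P28 WT replicate 1 or 3 (up to 0.177) and with no filter (0.0518). Tctn1 was lost without P20 Smo* replicate 1, P20 WT replicate 2 or 3, P28 Smo* replicate 2 or any P28 WT library (up to 0.14), with no filter (0.0521) and under quantile normalization (0.0739). Of 22 basal body and centriole genes, 1 passed at P28, where 8.9% of all genes did. It was Cep97, a partner of Ccp110 in capping the mother centriole. It had 337, 374 and 267 in P28 Smo* and 514, 597 and 596 in P28 WT (−0.81, adjusted p = 0.0267), a call lost without P28 Smo* replicate 1 (0.0596) or P28 WT replicate 1, 2 or 3 (0.0586, 0.108 and 0.116). Cep97 was also called higher over time in WT, with 344, 401 and 429 in P20 WT. That call held in 16 of 20 alternatives, at log2 fold changes of 0.45 to 0.61. It was lost without P20 WT replicate 1 or 2 or P28 WT replicate 2 or 3 (up to 0.0863). The motile axoneme list had no call in any of the 5 comparisons.

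Hedgehog proteins that pass through the cilium include targets of the pathway. At P20, 3 of the 17 tested were higher in Smo* than in WT, against 0.485% of all genes. Ptch1 (log2 fold change 2.87, adjusted p = 0.0179) and Gli1 were among them. The Ptch1 call was lost without P20 Smo* replicate 2 (0.0763) or P20 WT replicate 2 (0.07). At P28, 4 of the 17 were higher in Smo* than in WT and 1 lower, against 4.05% and 4.85% of all genes. Gli1 was higher by 1.52 on the log2 scale, Ptch1 by 1.51 (adjusted p = 0.0152) and the co-receptor Cdon by 1.27 (adjusted p = 0.0177). Gli3, named after its values were seen, was lower, with a log2 fold change of −0.63 (adjusted p = 0.0332). Cdon was at 6040 to 9237 in P28 Smo* and 7067 to 8282 in P20 Smo*. In WT Cdon was at 2367 to 4090 at P28 and 5089 to 7688 at P20. Gli3 was at 2333 to 3252 in P28 Smo* and 2745 to 3264 in P20 Smo*. In WT Gli3 was at 3961 to 4504 at P28 and 2502 to 3782 at P20. The Cdon call was lost without P28 WT replicate 2 or 3 (0.0822 and 0.0742), and that of Ptch1 without P28 WT replicate 1, 2 or 3 (0.0545, 0.0529 and 0.0653). Gpr161, Sufu and Kif7, which hold the pathway off or organise the cilium tip, did not pass at either age. Over time in WT, 3 of the 17 were higher at P28 and 4 lower, against 13.5% and 11.9% of all genes. Ptch1 was among the higher, at 14470 to 18532 in P28 WT and 2408 to 5470 in P20 WT, and Cdon among the lower. Both were called in all 20 alternatives. Among 13 transcription factors of cilium genes, 8 were tested over time, with 1 higher and 1 lower in WT and 1 lower in Smo*. Of all genes 25.4% were called over time in WT and 3.46% in Smo*. In WT, Gmnc, which drives multiciliated cells, was higher, at 39.2 to 62.3 in P28 WT and 0.964 to 4.16 in P20 WT (log2 fold change 3.79, adjusted p = 0.0075), and Rfx2 was lower, at 136 to 268 in P28 WT and 371 to 664 in P20 WT (−1.30, adjusted p = 0.0084). Both were called in every alternative that tested them. Rfx3 was lower in Smo* at P28 than at P20 (−1.01, adjusted p = 0.0436), with 422, 357 and 198 in P28 Smo* and 669, 642 and 574 in P20 Smo*. That call held in 2 of 12 left-out fits, without P20 WT replicate 1 or P28 Smo* replicate 3, and the adjusted p otherwise reached 0.112, and it was lost with no filter (0.0545).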

How the data were processed

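RNA of 12 libraries, 3 in each of 4 groups, was sequenced after ribosomal depletion with a strand-marking kit, per the labels' protocols. The submitters' processing notes list the builds mm10 and GRCm38.p4 and, as tools without roles, HTSeq, Trimmomatic, DESeq2 and TopHat2 (version 2). The authors deposited, per the file headers and values, a signal of read counts divided by 1 size factor per library (called normalized read counts), their own log2 fold changes, test statistics (a score) and p-values with adjusted p-values. The 2 deposited tables were normalized together: the authors' mean equals the mean of all 12 libraries within 0.000417. Whole reads were recovered in 100% of values below 1000 reads (tolerance 0.01) and used only for edgeR 4.0.16 and DESeq2 1.42.0 as alternatives. GENCODE symbols matched 25639 of 25887 IDs. No sample column was left unused.

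Genes with a mean of at least 10 went into limma 3.58.1 (R 4.3.3) as log2(value + 1), fitted with its trend of variance on the mean. P-values were Benjamini-Hochberg adjusted over all genes tested, with 0.05 as the threshold. The pseudocount makes changes of low genes look smaller. Genotypes were fitted within each age (6 libraries), and P28 over P20 and the difference of the Smo* effect in 1 fit of all 12. The fits were tested on simulated data. Members, gene lists and tests were chosen with earlier results of these data known. Members are named where they passed any test, had the smallest p of their role at either age or its highest level per kb, or fell under the filter. Their library values are given for at least 1 comparison, not for all. From other lists at most 4 genes per list and comparison are named by adjusted p. Some genes of these lists are not reported here. Alternatives were other pseudocounts, filters and scalings, edgeR, DESeq2, the authors' adjusted p, a 12-library fit and leaving out each library.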

Additional observations from a re-analysis of the deposited data

Results flagged for a closer look

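For 2 members the Smo* effect differed between the ages by the test of the difference itself. Wdr35 differed by −1.34 on the log2 scale (effects of −1.30 at P28 and 0.05 at P20), and Ift80 by −1.11 (−0.96 at P28 and 0.15 at P20). Among the other cilium genes, Cep97 of the centriole differed by −0.99 (−0.81 at P28 and 0.18 at P20, adjusted p = 0.0276), a call lost without P20 Smo* replicate 1 or 2, P20 WT replicate 1 or 2 or P28 WT replicate 2 or 3 (up to 0.0821). Gmnc, a regulator of multiciliated cells, differed by −4.91 (adjusted p = 0.0426), at 6.61, 12.3 and 0 normalized read counts in P28 Smo* libraries and 62.3, 39.2 and 45.1 in P28 WT libraries, and at 9.30, 11.3 and 7.30 in P20 Smo* libraries and 3.39, 4.16 and 0.964 in P20 WT libraries. The Gmnc call held in 2 of 12 left-out fits, without P28 Smo* replicate 2 or 3, and its adjusted p otherwise reached 0.108, and it was lost with a pseudocount of 0.5 (0.0586).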

How the results depend on the processing

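No paired analysis was made, because the labels do not pair the libraries. Each library has a number of its own, whose meaning the labels do not give. Some of these numbers are adjacent between genotypes of the same age, and whether they mark pairs is not known. The 4 members called at P28 became 7 with DESeq2 and with the authors' adjusted p, and 1 to 4 when a library was left out. Over time in WT, quantile normalization called 6 of the 11, and leaving out a library gave 3 to 13. Over time in Smo*, 1 was called with no filter and 0 to 2 without a library. The difference between ages had 4 calls with DESeq2 and 1 to 3 without a library. At P20 small differences changed sign under quantile normalization, to −0.077 for Bbs12, −0.011 for Bbs4, 0.012 for Kifap3 and 0.034 for Tulp3, and under TMM scaling, to 0.017 for Dync2li1 and 0.016 for Tulp3. Leaving out a library gave P20 ranges of −0.50 to 0.043 for Arl13b, −0.15 to 0.35 for Bbs12, −0.10 to 0.33 for Bbs4, −0.11 to 0.078 for Dync2li1, −0.18 to 0.0050 for Ift20, −0.23 to 0.16 for Ift27, −0.076 to 0.024 for Ift52, −0.036 to 0.080 for Kif3b, −0.22 to 0.22 for Ttc30b, −0.079 to 0.069 for Tulp3 and −0.0070 to 0.088 for Wdr35. At P28 the ranges were −0.0084 to 0.24 for Traf3ip1 and −0.29 to 0.040 for Tulp3, and over time in Smo* −0.34 to 0.14 for Ttc30b. The cause was not tested. Groups of 3 libraries limit what can be called, and low counts widen the intervals of Kif17, Ttc30a1, Bbs10 and Bbs12.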
